A study of Mus musculus with 295 samples.

Results

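Matrix metalloproteinases (MMPs), the ADAM and ADAMTS proteases and the tissue inhibitors of metalloproteinases (TIMPs) were followed in the adipose tissue of an F2 mouse cross. Members were all genes whose symbol on the array began with Mmp, Adam, Adamts or Timp and a number, apart from Mmp7, Mmp12 and Adam7, with a probe measured on 90% or more of the arrays. That gave 57 genes on 66 probes, of 11454 genes on 22894 probes: 21 Adam, 13 Adamts, 19 Mmp and 4 Timp genes. The measured member nearest the limit was Adam8, with a value in 282 of 295 mice, and Adam3, a sperm surface protein gene with a value in 247 mice (83.7%), was the only match left out. The 295 mice were F2 animals of both sexes from the inbred strains C57BL/6J and C3H/HeJ, all of them lacking ApoE, and all ate a high-fat Western diet between weeks 8 and 24 of age. Each mouse had 1 array, on which its RNA (Cy3) was set against 1 pool made of equal parts of every RNA (Cy5). The labels give no sex, genotype, weight or group for single mice, and no source used here gives the fat depot. Levels are log2 ratios of a mouse to the pool, with the deposited values read as log10 ratios, a base inferred from the values on which every fold size rests.

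MMPs are zinc endopeptidases that cut collagens, gelatins, proteoglycans and other MMPs, and most are made as inactive precursors. ADAMs are membrane-anchored and mainly release the outer parts of membrane proteins, while ADAMTS enzymes are secreted and cut proteoglycans, procollagens or von Willebrand factor. TIMPs bind the active sites of these enzymes. In fat, the matrix around adipocytes is remodelled as the tissue grows and as macrophages gather in it.

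Since the labels name no groups, members (1 probe per gene, the most variable) were set against continuous measures of the tissue. Scores are mean z-scores of marker genes: 13 of 15 listed macrophage markers were measured, 8 of 12 adipocyte markers and 6 of 8 fibrillar and type VI collagen genes, and Lep, the leptin gene, was used as its own level. Eif2s3y, a Y-linked gene, split the mice into 153 with high and 142 with low levels. Of the 153, 48 also carried epididymis transcripts (score at least 1.5), against at most 0.24 in the other 247 mice. Values are therefore also given for 48 Eif2s3y-high mice with epididymis transcripts, 105 Eif2s3y-high mice without them and 142 Eif2s3y-low mice. Mouse numbers were cut into a lower, middle and upper block. Of the 48 mice, 34, 10 and 4 lay in these blocks, against 18, 40 and 47 of the 105. The part of mouse number in differences between the Eif2s3y-high sets was not tested. The macrophage score had an r of -0.55 with the adipocyte score and 0.47 with the Eif2s3y level, so these measures overlap. Array medians ran from -0.17 to 0.13 on the log2 scale, and with 1 array per mouse technical error is part of the spread. In bulk tissue, more cells of a type and more RNA per cell cannot be told apart.

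A few members had a wide range over mice. The ratio of the 95th to the 5th percentile of mice was at least 2-fold for 26 of 57 members (45.6%), against 39.2% of all probes. The members' share is that of their most variable probes; with the probes of a gene averaged it was 42.1%, against 41.1% of all genes, so the shares were near each other. The median SD was 0.34 log2 units for members, against 0.31 for all genes and 0.29 for all probes. All 4 TIMPs, all 3 stromelysins and both gelatinases spanned 2-fold, against 1 of 6 in the group of other ADAMTS enzymes. Adam18, a sperm surface ADAM, had the largest SD, 1.70 ± 0.08 (SE, n = 295), and spanned 38.1-fold. Adam28, known from lymphocytes, followed with an SD of 1.33 and a 19.0-fold span. Adam8, an ADAM of leukocytes, had an SD of 1.12 and spanned 11.3-fold. Mmp3 (stromelysin-1), Timp1, Mmp13, Adam26a, Timp4, Mmp14 and Adam25 completed the 10 most variable members, with SDs between 0.59 and 0.92. The place of Adam25 rests on 1 mouse, number 12: without that mouse its SD was 0.50, below 0.57 for Mmp27. The ranks of Adam18 and Adam28 rest on the 48 arrays with epididymis transcripts: without them the SD was 0.77 for Adam18 and 0.55 for Adam28, below 1.19 for Adam8, 0.89 for Mmp3, 0.88 for Timp1 and 0.81 for Mmp13. The narrowest were Mmp8 (0.12), the neutrophil collagenase, Adam11 (0.14) and Mmp21 (0.14).

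**Figure D1:**
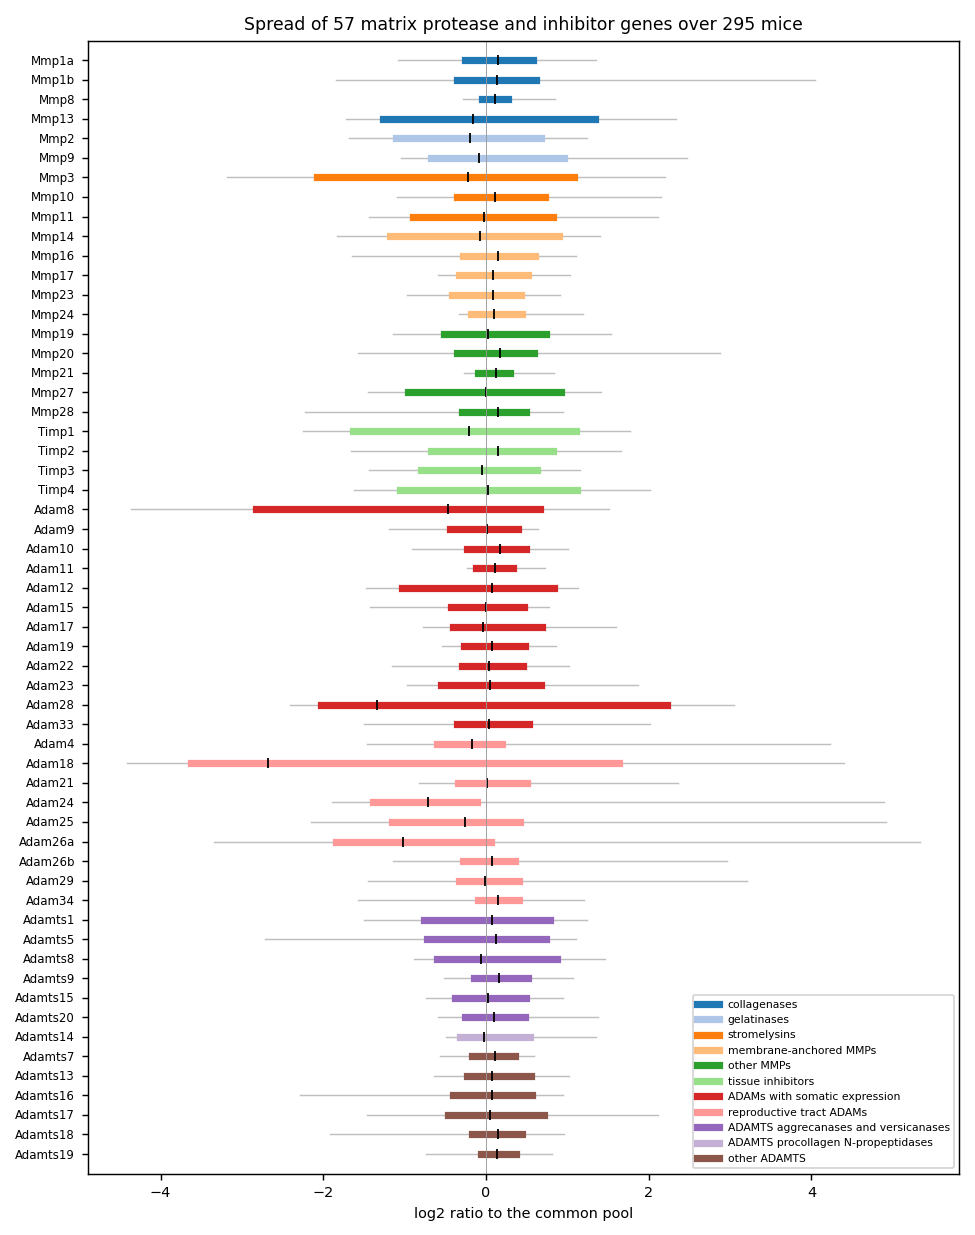
Levels of the 57 members as log2 ratios to the pool (x axis), 1 row per gene, coloured by role. Thick bars span the 5th to the 95th percentile of mice, thin lines the lowest to the highest mouse, and ticks mark the median; Adam18, Adam28 and Adam8 have the longest bars.

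With the macrophage score, 19 members rose and 10 fell, and 28 did not pass (limma, Benjamini-Hochberg adjusted p under 0.05 over all probes). In shares, 33.3% of members rose and 17.5% fell, against 24.8% and 28.8% of all probes. The 6 members with the highest correlations were Adam8, Mmp13, Timp1, Mmp2, Adam19 and Mmp19.

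Adam8 ran from -4.36 through a median of -0.46 to 1.51 over mice. It rose with the macrophage score by 1.18 ± 0.03 log2 units per unit of score (r = 0.92, limma adjusted p = 5.67e-117), and r was 0.85 in Eif2s3y-high mice with epididymis transcripts, 0.87 in those without and 0.92 in Eif2s3y-low mice. Mice with few macrophage transcripts lay far below the pool for Adam8. Mmp13, the main collagenase of rodent tissues, ran from -1.72 through -0.16 to 2.33 and rose by 0.72 ± 0.03 per unit (r = 0.80). The other collagenases Mmp1a (r = 0.05, adjusted p = 0.509), Mmp1b (0.01, adjusted p = 0.915) and Mmp8 (0.01, adjusted p = 0.879) did not pass. Adam8 also rose with 6 mast cell markers (r = 0.38) and 7 neutrophil markers (0.31), and Mmp13 with the mast cell markers (0.62). With mast cell markers 18 members rose and 13 fell, against 25.6% and 32.3% of all probes, and with neutrophil markers 16 rose and 13 fell, against 28% and 26.8%. The part of these cells in the result was not tested.

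Mmp2 (gelatinase A), made by fibroblasts and other stromal cells, ran from -1.69 through -0.20 to 1.24 and rose by 0.43 ± 0.03 per unit of macrophage score (r = 0.69). The relation differed by set, with r of 0.79 in Eif2s3y-high mice with epididymis transcripts, 0.88 in those without and 0.54 in Eif2s3y-low mice. Mmp9 (gelatinase B), known from neutrophils and macrophages, ran from -1.04 through -0.08 to 2.47 and fell with the score over all mice (r = -0.37, adjusted p = 2.89e-10). That sign held in 1 of the 3 sets: r was 0.49 in Eif2s3y-high mice with epididymis transcripts, 0.05 in those without and -0.40 in Eif2s3y-low mice. With all 5 measures fitted together the partial r of Mmp9 was 0.02 (adjusted p = 0.831).

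Mmp3, which cuts proteoglycans and activates other MMPs, ran from -3.19 through -0.22 to 2.21. Its r with the macrophage score was 0.64 over all mice and higher within each set, at 0.82, 0.83 and 0.79 (Eif2s3y-high with epididymis transcripts, Eif2s3y-high without, Eif2s3y-low). Mmp27, a less studied MMP, ran from -1.45 through 0.00 to 1.41 and had r of 0.55 over all mice and 0.79, 0.80 and 0.80 in the same sets. In the plot of levels against scores, the Eif2s3y-low mice form a band above the others for Mmp27, parallel to theirs. Mmp19 (r = 0.65) and Adam19 (0.65), a membrane protease of the meltrin group, also rose in all 3 sets. Timp1, a secreted inhibitor, ran from -2.24 through -0.21 to 1.77 and rose by 0.72 ± 0.04 per unit (r = 0.74).

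The MMPs that rose include neighbours in 1 cluster: 8 MMP members lie on chromosome 9 in RefSeq (Mmp1a, Mmp1b, Mmp3, Mmp8, Mmp10, Mmp13, Mmp20 and Mmp27). Of these, Mmp3, Mmp10 (stromelysin-2, r = 0.17), Mmp13 and Mmp27 rose with the macrophage score and the other 4 did not pass. The 250 bases before the annotated start (RefSeq, GRCm38.p6) are printed for the 3 of these 4 that hold both an AP-1 motif and a TATA box, and for Adam8, which followed the score most closely and whose window holds neither. Capitals mark the motifs TGANTCA (AP-1) and TATAAA, searched on both strands. The windows are chr9:7445572-7445821, chr9:7272264-7272513 and chr9:7502092-7502341 on the plus strand and chr7:139992563-139992812 on the minus strand.
Mmp3: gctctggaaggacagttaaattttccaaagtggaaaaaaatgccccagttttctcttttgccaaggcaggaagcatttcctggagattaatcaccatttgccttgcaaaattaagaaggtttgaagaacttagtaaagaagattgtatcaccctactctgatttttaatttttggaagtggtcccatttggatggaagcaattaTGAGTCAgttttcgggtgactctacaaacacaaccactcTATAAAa
Mmp13: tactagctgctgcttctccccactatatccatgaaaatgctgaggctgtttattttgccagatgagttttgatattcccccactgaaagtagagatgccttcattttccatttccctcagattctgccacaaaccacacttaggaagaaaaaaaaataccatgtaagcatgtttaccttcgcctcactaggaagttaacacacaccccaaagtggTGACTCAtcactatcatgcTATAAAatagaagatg
Mmp10: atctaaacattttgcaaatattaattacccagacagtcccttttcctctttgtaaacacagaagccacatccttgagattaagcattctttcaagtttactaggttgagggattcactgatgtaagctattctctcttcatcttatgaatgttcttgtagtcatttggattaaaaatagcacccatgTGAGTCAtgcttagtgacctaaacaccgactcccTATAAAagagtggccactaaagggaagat
Adam8: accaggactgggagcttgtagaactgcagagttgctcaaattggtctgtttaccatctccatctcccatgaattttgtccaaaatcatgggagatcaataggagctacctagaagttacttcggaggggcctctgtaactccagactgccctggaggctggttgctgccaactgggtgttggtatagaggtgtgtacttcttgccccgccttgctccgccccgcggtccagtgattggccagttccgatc
The AP-1 match lies 46 to 40 bases before the start in Mmp3, 35 to 29 in Mmp13 and 63 to 57 in Mmp10. Among members, 37 genes had a window in the RefSeq table (40 windows), and 7 of them held both motifs: Adam29, Mmp1a, Mmp1b, Mmp3, Mmp10, Mmp13 and Mmp20. Of all 32851 windows, 6.75% held the AP-1 letters, 12.4% the TATA letters and 1.21% both. Mmp1a, Mmp1b and Mmp20 hold both motifs and did not pass with the macrophage score, while Mmp27 rose and holds neither motif. Of 2 further motifs searched, GAGGAAGT (PU.1) was in the windows of Adam29 and Mmp8 (2.44% of all windows), and TTGCNNAA (C/EBP) in those of 7 member genes (9.56% of all windows), among them Adam8, Mmp3, Mmp10 and Mmp27.

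**Figure D2:**
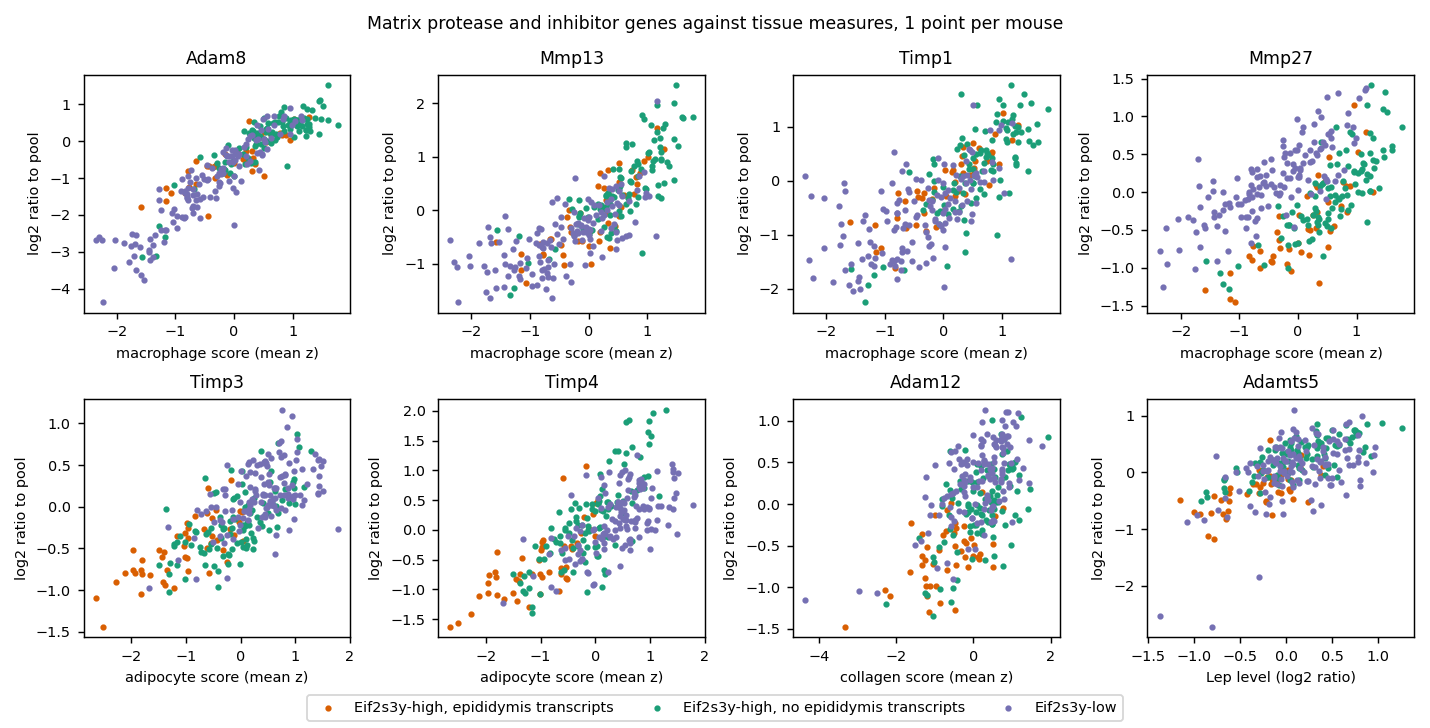
Log2 ratio of 8 members (y axes) against the macrophage, adipocyte and collagen scores (mean z) or the Lep level (log2 ratio, x axes), 1 point per mouse, coloured by set. Adam8, Mmp13, Timp1 and Mmp27 rise with the macrophage score, and Timp3 and Timp4 with the adipocyte score.

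Members that fell with the macrophage score were led by Timp3, an inhibitor held in the matrix that also blocks ADAM17 and aggrecanases. Timp3 ran from -1.44 through -0.05 to 1.16 and fell by 0.30 ± 0.02 per unit (r = -0.59, adjusted p = 1.12e-27), with r of -0.32, -0.64 and -0.57 in Eif2s3y-high mice with epididymis transcripts, Eif2s3y-high mice without and Eif2s3y-low mice. Timp4, an inhibitor with high expression in fat and heart, had r = -0.40, and its partial r with all 5 measures was 0.01 (adjusted p = 0.90). Adamts17 (-0.47), Adamts9 (-0.34), a versican-cutting enzyme, and Adamts16 (-0.32) also fell. The 3 other probes of Adamts17 had r between -0.10 and 0.02 and did not pass, so its value rests on 1 probe. The other probe of Adamts16 had r = 0.09 (adjusted p = 0.186), so that fall rests on 1 of 2 probes as well.

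With the adipocyte score, 26 members rose and 20 fell, against 43.8% and 27.1% of all probes. The share of members that rose (45.6%) was near the background. The balance turned under other settings. With array medians removed 17 rose and 23 fell (31.2% and 33.4% of all probes). Without the 48 arrays with epididymis transcripts 13 rose and 16 fell (25.8% and 22.3%), and in the 105 Eif2s3y-high mice 6 rose and 17 fell (21.8% and 18.2%). The TIMPs divided: Timp3 (r = 0.74) and Timp4 (0.73) rose, and Timp1 (-0.56) and Timp2 (-0.16) fell. The partial r of Timp2 with all 5 measures together was 0.35 (adjusted p = 5.33e-09), the opposite sign. Timp3 rose by 0.39 ± 0.02 and Timp4 by 0.60 ± 0.03 log2 units per unit of score, in all 3 sets, with r of 0.74, 0.65 and 0.53 for Timp3 and 0.76, 0.78 and 0.60 for Timp4 (Eif2s3y-high with epididymis transcripts, without, Eif2s3y-low). Timp4 ran from -1.62 through 0.03 to 2.01. In the 48 mice with epididymis transcripts its median was -0.72, against 0.08 in the other Eif2s3y-high mice.

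The versicanases Adamts9 (r = 0.53) and Adamts20 (0.53), the aggrecanase Adamts5 (0.44) and Adam12 (0.46) also rose with the adipocyte score. Mmp13 (-0.53) and Adam8 (-0.53) fell with it, and with all 5 measures together the partial r was -0.05 for Mmp13 (adjusted p = 0.446) and -0.18 for Adam8 (adjusted p = 0.00583). Timp3 followed 8 endothelial markers at least as closely as adipocyte ones (r = 0.79), and Timp4 had 0.64 with them. The adipocyte and endothelial scores themselves had r = 0.84, so their parts cannot be told apart here. With the endothelial score 27 members rose and 18 fell, against 45.3% and 28.7% of all probes.

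With the collagen score, 30 members rose and 7 fell, against 36.4% and 22% of all probes, which compares with 52.6% and 12.3% of members. Adam12, a meltrin active in muscle and fat precursor cells, ran from -1.47 through 0.07 to 1.13 and rose by 0.41 ± 0.03 per unit of score (r = 0.62, adjusted p = 1.67e-30). Its r was 0.53, 0.57 and 0.62 in Eif2s3y-high mice with epididymis transcripts, Eif2s3y-high mice without and Eif2s3y-low mice. Adamts15 (r = 0.61), Mmp2 (0.53), Adamts7 (0.51), Adam23 (0.50), an adhesion ADAM without protease activity, and Adam9 (0.43) followed. With array medians removed 27 members rose and 9 fell, against 26.2% and 26.7% of all probes. The median absolute r of members was 0.21 in the main fit, 0.18 with array medians removed and 0.13 without the 48 arrays with epididymis transcripts. For all probes it was 0.15, 0.14 and 0.11. Adam9 had r = 0.01 in the 105 Eif2s3y-high mice. The 6 lowest were ADAMs, Adam18 (-0.39), Adam28 (-0.31), Adam25, Adam26a, Adam4 and Adam24; the other probe of Adam4 had r = 0.10 and did not pass. Without the 48 arrays with epididymis transcripts, 22 members rose and 2 fell, against 16.9% and 16.8% of all probes in that fit, and Adam28, Adam26a, Adam4 and Adam24 turned to between 0.01 and 0.14, none past the threshold.

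With the Lep level, 24 members rose and 11 fell, against 38.7% and 28.3% of all probes, so the share that rose (42.1%) was near the background. With array medians removed 18 rose and 14 fell, against 32.1% and 34.8% of all probes. By set, 6 rose and 6 fell in Eif2s3y-high mice with epididymis transcripts (12.4% and 5.43% of all probes), 9 and 10 in those without (22.7% and 16.8%) and 25 and 12 in Eif2s3y-low mice (31.8% and 28.6%). Adamts5, an aggrecanase, ran from -2.72 through 0.12 to 1.10 and rose by 0.67 ± 0.05 log2 units per log2 unit of Lep (r = 0.63, adjusted p = 7.45e-32). Its r was 0.65, 0.76 and 0.52 in Eif2s3y-high mice with epididymis transcripts, those without and Eif2s3y-low mice, and its other probe had 0.52. Adam12 (0.51), Adam9 (0.51), Mmp24 (0.43), a membrane-anchored MMP, Timp4 (0.43) and Adamts14 (0.37), a procollagen N-propeptidase, were next. Adam9 followed Lep at 0.65 in Eif2s3y-low mice, against 0.31 and 0.16 in Eif2s3y-high mice with and without epididymis transcripts. The 4 collagenases and 2 gelatinases had r with Lep between -0.09 and 0.06 over all mice. They did not pass in the limma fit, also at an unadjusted p under 0.05. The interaction terms of Lep with Eif2s3y ran from -0.19 to 0.16 (partial r) for the 4 collagenases. Of these, 1 positive and 1 negative term passed, while those of the gelatinases did not. Mmp14, the membrane MMP that activates Mmp2 (-0.22), and Mmp16 (-0.21) fell.

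**Figure D3:**
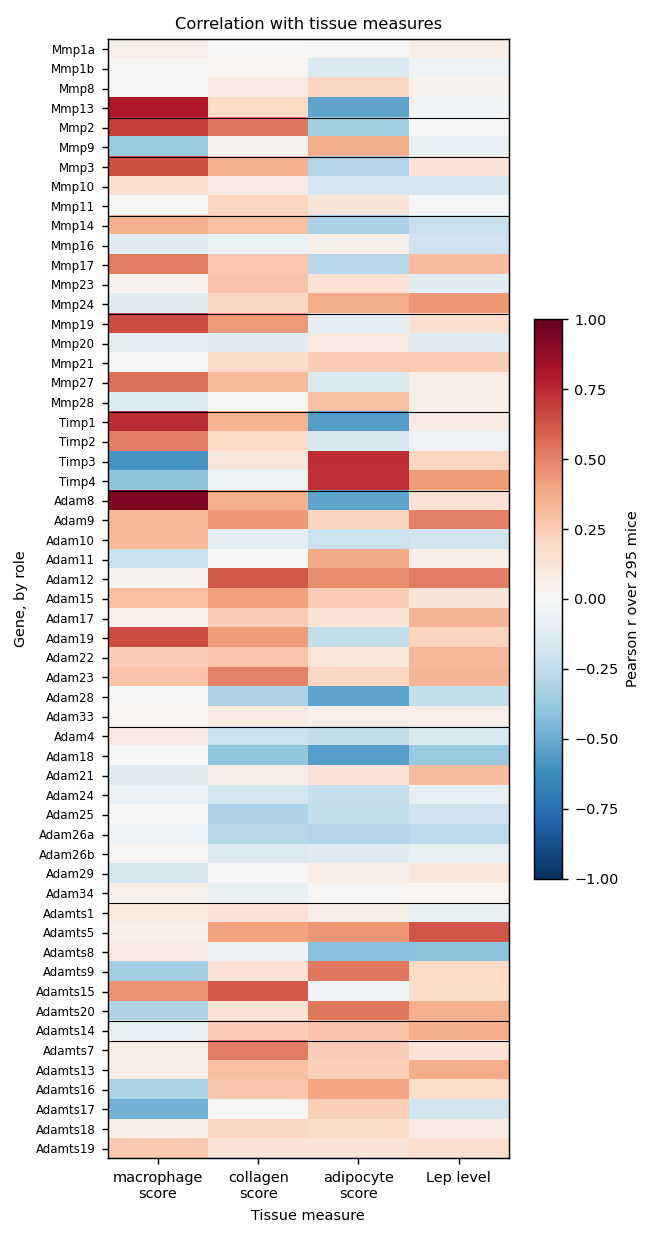
Pearson r over the mice with a value, 282 to 295 (colour, red positive and blue negative) of each member (rows, grouped by role between black lines) with 4 tissue measures (columns). Adam8 has the highest value, 0.92 with the macrophage score, and Timp3 and Timp4 the highest with the adipocyte score.

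Adamts8 was the member whose probes disagreed most. The more variable probe fell with the adipocyte score (r = -0.42) and with Lep (-0.41), and the other probe rose with both (0.66 and 0.38). The r between these probes was -0.30, and no direction is given for the gene. Probes of Adam4 had r = -0.25, those of Adamts13 0.05 and those of Adamts5 0.55.

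Levels also differed with Eif2s3y, for which 16 members rose and 21 fell, against 31.1% and 40% of all probes, shares near the background. Adam8 had a median of 0.25 in the 105 Eif2s3y-high mice lacking epididymis transcripts, against -1.07 in Eif2s3y-low mice, a 2.50-fold ratio of medians. Timp1 had 0.32 and -0.59 in the same sets (1.88-fold), and Mmp13 had 0.30 and -0.49 (1.72-fold). These are also members that followed the macrophage score. With all measures together the partial r with Eif2s3y was 0.13 for both Adam8 (limma adjusted p = 0.0494) and Timp1 (adjusted p = 0.0403). It was 0.16 for Mmp13 (limma adjusted p = 0.0102). Mmp19 (0.38 against -0.11) and Timp2 (0.42 against -0.05), the inhibitor that takes part in Mmp2 activation, were also higher in the 105 Eif2s3y-high mice, and both rose with Eif2s3y over all mice (limma adjusted p = 1.26e-09 and 1.27e-12). In the 48 mice with epididymis transcripts the medians were -0.16 for Mmp19, below that of Eif2s3y-low mice, and 0.13 for Timp2. Adam10, which cuts Notch receptors, was higher by a small step, with medians of 0.24 in the 105 Eif2s3y-high mice and 0.06 in Eif2s3y-low mice. It rose with Eif2s3y over all mice (limma adjusted p = 1.86e-17).

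Mmp9 was lower in Eif2s3y-high mice, with a median of -0.28 in those without epididymis transcripts, against 0.24 in Eif2s3y-low mice (ratio 0.697). Over all mice Mmp9 fell with the Eif2s3y level (limma adjusted p = 6.61e-23). Its partial r with Eif2s3y was -0.41 when the other measures were fitted too. Timp3 had medians of -0.23 and 0.14 in these sets, Adam12 0.00 and 0.33, and Adamts16 -0.06 and 0.22. The other probe of Adamts16 had medians of 0.09 and 0.12. Its r with Eif2s3y was -0.14, against -0.54 for the probe used. Adamts20 and Adamts14 were lower as well, with r of -0.49 and -0.41. The ranges of the sets overlapped for each of these members. The plot of levels by set shows this for Mmp9, Adam12, Timp3 and Adamts16.

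**Figure D4:**
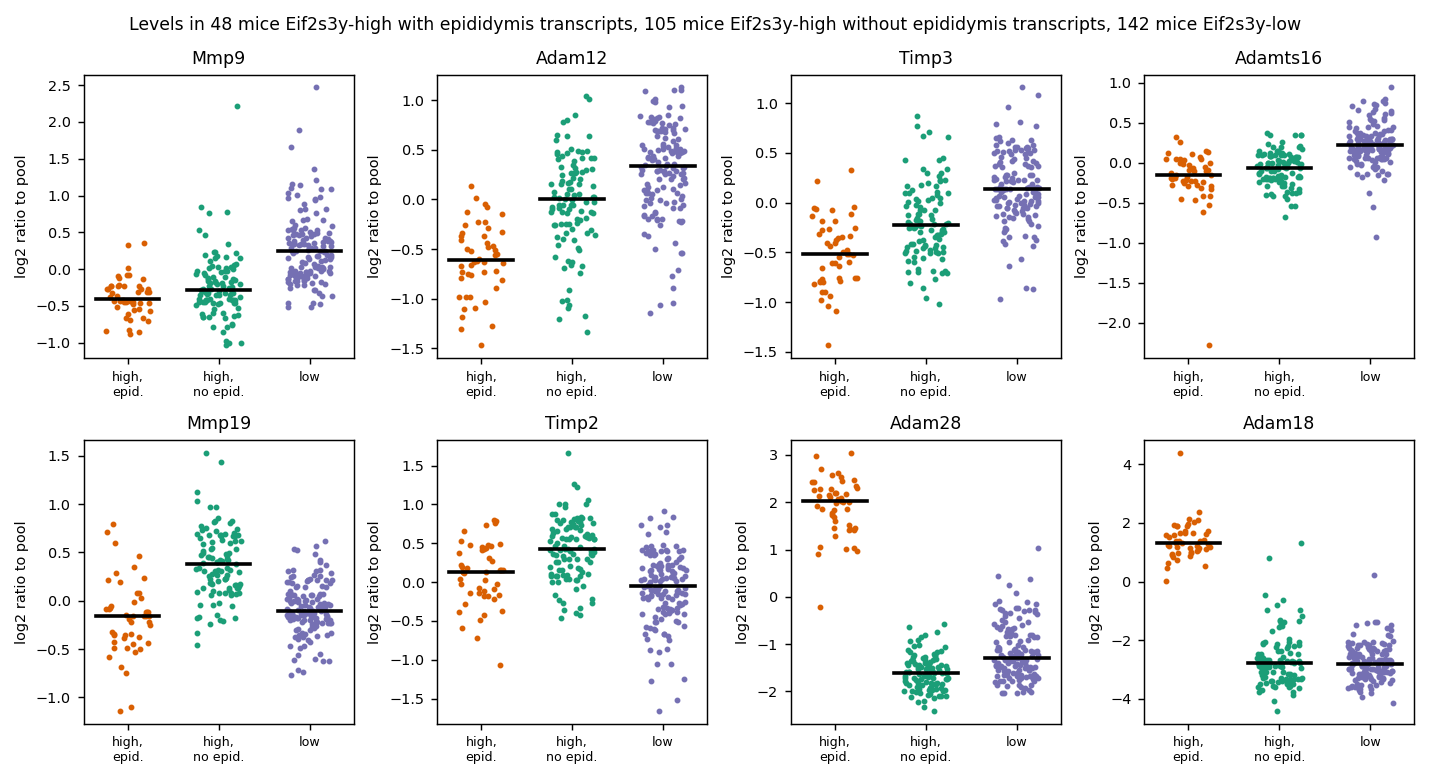
Log2 ratios of 8 members (y axes) in 48 Eif2s3y-high mice with epididymis transcripts (left), 105 Eif2s3y-high mice without (middle) and 142 Eif2s3y-low mice (right), 1 point per mouse, with the median as a line. Adam28 and Adam18 stand high in the left column, and Mmp9 is higher in Eif2s3y-low mice.

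Adam28 and Adam18 went with the epididymis transcripts, which were measured with 6 of 8 listed markers. Over that score 8 members rose and 35 fell, against 19.4% and 53.4% of all probes. Adam28 ran from -0.22 through 2.02 to 3.05 in the 48 mice with epididymis transcripts, from -2.41 through -1.62 to -0.57 in Eif2s3y-high mice without and from -2.04 through -1.29 to 1.04 in Eif2s3y-low mice. The median in the 48 mice was 12.5 times that of the other Eif2s3y-high mice, and the ranges of these sets did not overlap, while 9 Eif2s3y-low mice reached the range of the 48 (limma slope 1.26 ± 0.03 per unit of score, adjusted p = 1.42e-131). Adam18 had medians of 1.33 in the 48 mice, -2.78 in Eif2s3y-high mice without epididymis transcripts and -2.82 in Eif2s3y-low mice, and 3 of the 247 other arrays reached the range of the 48. The r of Adam28 with Adam18 was 0.02 among the 247 arrays. Adam12 (median -0.61 in the 48 mice against 0.00 in the other Eif2s3y-high mice) and Mmp11 (-0.46 against 0.07) were lower with the epididymis transcripts. With the mean of 7 mesothelial and epithelial markers, which had r = 0.60 with the epididymis score, 7 members rose and 33 fell, against 19.3% and 49.9% of all probes. Of the 7 markers themselves, 5 rose and 2 fell with the epididymis score, so that mean mixes markers that went different ways. With 4 skeletal muscle markers 16 members rose and 11 fell, against 28.7% and 22.7% of all probes.

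Missing values followed the same split. Adam3 had no value on any of the 48 arrays with epididymis transcripts and a value on each of the 247 others. It was 1 of 98 probes with exactly that pattern, which cover 55 named genes, and no probe had the opposite pattern. Among them were the sperm genes Tnp1, Tnp2, Prm2 and Ldhc and the pancreas genes Cel, Reg1 and Prss1. No source used here gives the reason.

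The reproductive tract ADAMs, which are known mainly from sperm cells and testis, had their highest value in 1 mouse. Mouse 12, 1 of the 48 with epididymis transcripts, was the highest of all mice for 9 of 9 of these genes, on the most variable probe of each, and for none of the other 48 members. Adam26a was 5.33 there, against at most 2.25 in the other mice. Adam25 (4.92 against 1.99), Adam24 (4.90 against 1.92), Adam18 (4.39 against 2.37) and Adam4 (4.22 against 1.09) were alike on that probe. On their second probes, Adam25 was again highest in mouse 12 (4.38 against 1.61), whereas Adam4 was not (-0.11 against 1.19), so the value of Adam4 rests on 1 of 2 probes, which had r = -0.25. Of 7 testis transcripts listed after the values were seen and measured here, 6 were also highest in mouse 12, up to 5.14 for Pgk2. Tcp11 was not, on the probe used (-0.68). Another Tcp11 probe had no value on any of the 48 arrays, mouse 12 among them, nor had probes of Tnp1, Tnp2, Prm2 and Ldhc. Without mouse 12 the SD of Adam24 was 0.46 in place of 0.56 and that of Adam26a 0.68 in place of 0.77. The part of testis transcripts in these values was not tested.

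**Figure D5:**
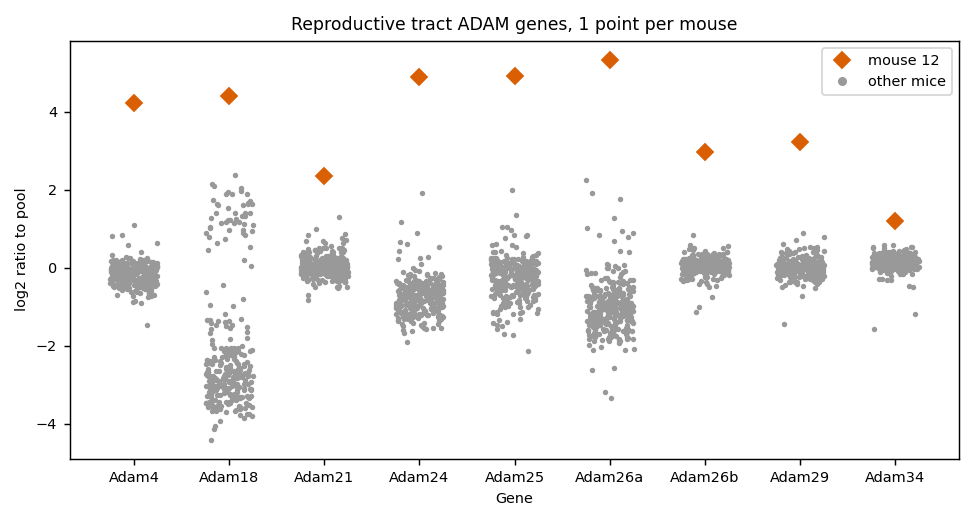
Log2 ratios (y axis) of the 9 reproductive tract ADAM genes (x axis), 1 point per mouse, with mouse 12 as an orange diamond. Mouse 12 lies above every other mouse for each gene, from 1.21 for Adam34 to 5.33 for Adam26a.

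Relations to the macrophage score differed with Eif2s3y for many members: the interaction term was positive for 20 and negative for 9, against 21.5% and 15% of all probes. A positive term means a relation that is more positive in Eif2s3y-high mice, be it a steeper rise, a weaker fall or a change of sign, and 35.1% of members had one. With array medians removed 17 were positive and 11 negative, against 16.2% and 21.8% of all probes. Mmp2 had the largest (partial r = 0.48, adjusted p = 3.79e-15). Mmp23 rose with the score in Eif2s3y-high mice, with r of 0.64 with epididymis transcripts and 0.61 without, and had -0.21 in Eif2s3y-low mice. Mmp10 showed 0.45, 0.53 and -0.08 in the same order and Mmp11 (stromelysin-3) 0.43, 0.44 and -0.17. With Lep, the term was positive for 9 members and negative for 11, against 21.2% and 12.8%. With array medians removed 5 were positive and 19 negative, against 14.9% and 19.5%. Leaving out the 48 epididymis arrays gave 2 positive and 15 negative terms, against 11.4% and 9.21%. Mmp27 had r with Lep of -0.47, -0.38 and 0.37 in these sets, Mmp3 -0.41, -0.22 and 0.49, and Adam8 -0.35, -0.19 and 0.41. These 3 members, which followed the macrophage score, had opposite signs with Lep in Eif2s3y-high and Eif2s3y-low mice.

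Of 13 enzyme and inhibitor pairs chosen for known relations, 11 passed a two-sided permutation test over mice (100000 resamples, Benjamini-Hochberg over the 13, smallest possible p 1e-05). The smallest absolute r among these 11 was 0.21, and 36.8% of all 1596 pairs of members reached it. The transcripts of Mmp2, Mmp14 and Timp2, the genes of an activation complex, varied together. The complex itself was not measured. Mmp2 had r = 0.60 (rho = 0.59) with Mmp14 and 0.61 (rho = 0.66) with Timp2, and Mmp14 had 0.47 (rho = 0.49) with Timp2. Each of these reached the smallest p the test can give, 1e-05, and held in all 3 sets and in low, middle and high mouse numbers alike. Mmp3 and Mmp13 had r = 0.61 (0.77, 0.81 and 0.71 in the 3 sets), Mmp3 and Timp1 0.56, and Timp3 and Timp4 0.63.

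Other pairs had values that varied by set, a difference that was not tested. Mmp9 had r = -0.36 with its inhibitor Timp1 over all mice, but 0.51 in Eif2s3y-high mice with epididymis transcripts, -0.04 in those without and -0.40 in Eif2s3y-low mice. Adam8 with Mmp9 had r = -0.40 over all mice and 0.45, 0.07 and -0.42 in the same sets. The stromelysins Mmp3 and Mmp10 had 0.29 over all mice and 0.39, 0.52 and -0.02 in the sets. Adam10 and Adam17, which both release membrane proteins, had r = -0.63 (rho = -0.55), with -0.29, -0.31 and -0.74 in the same sets. Mmp8 with Mmp9 and Adam12 with Mmp14 (both r = 0.06, permutation p adjusted over the 13 pairs = 0.317) did not pass.

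Over all 1596 pairs of members the median r was 0.03, with 70 pairs at 0.5 or above and 18 at -0.5 or below. The closest was Adam17, which releases TNF, with Adamts14 (0.89), and both followed Adamts13, which cuts von Willebrand factor (0.78 and 0.79). The other probe of Adamts13 had r = -0.09 with each of them. Adam18 and Adam28 had the second highest r, 0.82, which was 0.02 without the 48 arrays with epididymis transcripts. Adam10 was the most opposed to Adamts14 (-0.66). Mmp27 and Mmp3 had 0.80, Adam8 and Mmp13 0.72, and Adam8 and Timp1 0.71. These are descriptions over mice that share 1 pool and may share array effects.

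Other genes of matrix turnover were read from 3 further lists. Of 16 further proteases and regulators, 6 rose and 8 fell with the macrophage score (24.8% and 28.8% of all probes), led by the cathepsins Ctsb (r = 0.91) and Ctsk (0.87), which cut matrix in lysosomes and outside cells, and by Plau (0.67), the urokinase gene. With the collagen score 13 rose and 1 fell (36.4% and 22% of all probes), led by Bmp1 (0.59), a procollagen C-proteinase, and Pcolce (0.73), its enhancer. Of 12 matrix substrates, 9 rose with the collagen score (36.4% of all probes), led by Col4a1 (0.78) of the basement membrane. Vcan, the versican gene, rose with the macrophage score (0.60), whereas Acan, the aggrecan gene, fell (-0.65). Of 13 shed membrane proteins, 6 rose and 4 fell with the macrophage score (again 24.8% and 28.8% of all probes), and Tnf, the substrate of Adam17, had the highest r (0.81), while Adam17 itself did not pass (r = 0.05, adjusted p = 0.483).

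The 48 relations of named members to the macrophage, collagen, adipocyte and Lep measures were chosen for the largest r in these same mice. Each kept its sign when the 2 mice farthest from the measure's median were left out, which was likely from the start. There r moved by up to 0.14 with the collagen score and by at most 0.035 with the other measures. Signs held in all 3 blocks of mice by number (98, 98 and 99 mice) for 44 of the 48 relations and in all 3 sets for 41. The exceptions in the sets were Mmp9 with the macrophage score, Adam24, Adam26a, Adam28 and Adam4 with the collagen score, and Adam28 with the adipocyte score and Lep.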

How the data were processed

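Adipose RNA of 295 F2 mice was hybridised with Cy3 against a common Cy5 pool, per the labels. The authors deposited log ratios for 23387 probes, read here as log10 although no source used here states the base; the correction and normalization are not given in the sources used here. Base, centring and direction were inferred: the deposited range was -2 to 2, array means ran from -0.00992 to 0.0250 and medians from -0.0521 to 0.0387. The slope of a probe's mean on its variance was -1.63, where mouse over pool would give -1.15 in log10, -0.50 in natural log or -0.35 in log2; its sign gives the direction, while no base matches it and log10 is nearest. On the log10 reading a gene carried only by Eif2s3y-high mice would lie near 0.95 log2 units in them. The medians there were higher, 1.26 for Eif2s3y and 1.29 for Kdm5d. A transcript found only on the epididymis arrays would lie near 2.62, and Lcn8, Lcn9, Gpx5 and Adam7 had medians between 1.17 and 2.13. Fold sizes rest on the log10 reading. Of 43365 array pairs, 959 had r under -0.3 (lowest -0.52), each with 1 array with epididymis transcripts; the labels state the dyes, so the direction was kept. The single-sample text names 330 mice, and 1 mouse has different numbers in its title and source name (the title was used).

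Values were multiplied by 3.32 to log2. Probes measured on 90% of arrays were kept (493 were not, and 1.02% of all values were missing) and named through the platform table and RefSeq GRCm38.p6 (13644 probes had 1 symbol, 48 several, 9695 none; 12652 matched). A gene is represented by its most variable probe. Each probe was regressed on each measure with limma 3.58.1 (R 4.3.3, Benjamini-Hochberg over all probes); interaction terms used centred measures. The code was tested on simulated data. The rest ran in Python 3.11.15 (matplotlib 3.10.9, SciPy 1.17.1, pandas 2.3.3, NumPy 2.4.6). Named members were the 6 of largest absolute r in each direction in each fit, the 10 of largest SD, the TIMPs and the genes of fixed pairs. Alternatives covered centring, missing values, values at the limit, the probe of a gene, the filter, mouse number as a 3-level block, joint fits and sets of mice. Members and lists were chosen with earlier results of these data known, and sets of mice were defined from the data by the widest gaps in 2 measures. The number of arrays limits precision. P-values measure spread between mice, each on 1 array.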

Additional observations from a re-analysis of the deposited data

Results flagged for a closer look

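Interaction terms passed the limma test (adjusted p under 0.05 over all probes) for the members below, meaning that their relation to a tissue measure differed along the Eif2s3y level. Values are partial r of the term, positive where the relation is more positive in Eif2s3y-high mice. With Lep, the term was 0.37 for Adamts17, 0.26 for Mmp11, 0.25 for Timp4, 0.24 for Adamts9, 0.22 for Timp3 and 0.16 for Mmp8. It was -0.35 for Adam28, -0.29 for Mmp3, -0.28 for Adam18, -0.27 for both Mmp27 and Mmp17 and -0.26 for Adam8. Without the 48 arrays with epididymis transcripts, the Lep term did not pass for Adam28, Adam18, Mmp11, Timp4, Timp3 and Mmp8, and it stayed past the threshold for Adamts17, Adamts9, Mmp3, Mmp27, Mmp17 and Adam8. The Adamts17 value comes from 1 of its 4 probes. The term of the other 3 was 0.01, -0.04 and 0.16, of which the last passed (limma adjusted p = 0.0182), and their r with Lep had the opposite sign to that of the first.

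With the macrophage score, the term was 0.48 for Mmp2, 0.46 for Mmp23, 0.37 for both Mmp11 and Mmp10, and 0.34 for both Mmp19 and Mmp13. These 6 also passed without the arrays with epididymis transcripts. It was -0.29 for Adam8, -0.26 for Adam18, -0.25 for Adam28, -0.23 for Adam21, -0.22 for Adam29 and -0.21 for Adam24. Of these, Adam8 and Adam21 passed without those arrays, and Adam18, Adam28, Adam29 and Adam24 did not. The count of negative terms was 5 without mouse 12, the mouse with the highest values of the reproductive tract ADAMs, in place of 9. The cause of these differences was not tested.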

How the results depend on the processing

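No paired analysis was possible because each mouse has 1 array and the labels pair no samples. Counts of called members moved by over 1.5 times as follows, among 57, with the share of all probes called in the same fit and direction in parentheses. With all 5 measures fitted together, 19 rose (13.4%) and 2 fell (14.3%) with the collagen score, 13 fell with the adipocyte score (26%) and 18 fell with Lep (32.5%). Without the 48 arrays with epididymis transcripts, 2 fell with the collagen score (16.8%), 13 rose with the adipocyte score (25.8%), 14 rose (28.9%) and 16 fell (31.5%) with the epididymis score, 8 rose with 4 skeletal muscle markers (17.8%; 16 with all arrays), and 2 had a positive Lep interaction (11.4%). With array medians removed, 17 rose with the adipocyte score (31.2%), and 5 had a positive (14.9%) and 19 a negative (19.5%) Lep interaction. In Eif2s3y-high mice with epididymis transcripts, 8 rose (10.5%) and 7 fell (6.2%) with the adipocyte score and 6 rose (12.4%) and 6 fell (5.43%) with Lep. In Eif2s3y-high mice without them, 17 rose (12.1%) and 2 fell (10.4%) with the collagen score, 6 rose with the adipocyte score (21.8%) and 9 with Lep (22.7%). In Eif2s3y-low mice, 19 rose (15.2%) and 0 fell (14.1%) with the collagen score (limma; 4 fell at an unadjusted p under 0.05), and 10 rose (23.1%) and 12 fell (17.8%) with the adipocyte score. Without mouse 12, chosen after seeing the data, 5 had a negative macrophage interaction (14.6%). Read as log2, 3 members spanned 2-fold (2.27% of all probes), and as natural log 6 (5.55%). Counts with the macrophage score itself, its interaction apart, stayed within 1.5 times under the 12 alternatives tried.

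Signs were followed for the members of largest r in each fit and, with the 5 main measures, for the TIMPs and the genes of fixed pairs past the threshold. Adam28 with Lep had r of 0.24 with all measures together, 0.24 without the 48 arrays, 0.33 in Eif2s3y-low mice and 0.19 in Eif2s3y-high mice without epididymis transcripts, and Adam18 had 0.0459 with all measures together. With the adipocyte score Adam28 had 0.0425 without those arrays and 0.0262 in Eif2s3y-high mice without epididymis transcripts, and Adamts8 had 0.0138 as the mean of its probes. With the collagen score, without those arrays, r was 0.14 for Adam28, 0.0063 for Adam26a, 0.0402 for Adam4 and 0.10 for Adam24. In the 105 other Eif2s3y-high mice it was 0.15, 0.11, 0.0927 and 0.0833 for the same members, and in Eif2s3y-low mice 0.19 for Adam28 and 0.13 for Adam24. Without the 48 arrays Adam28 had 0.16 with endothelial markers, and slopes on the epididymis score were -0.53 for Adam25, 0.15 for Adamts20 and 0.13 for Timp3. Timp4 (0.0104) and Mmp9 (0.0171) turned with the macrophage score in the joint fit, and Mmp9 had 0.49 and 0.0485 in Eif2s3y-high mice with and without epididymis transcripts. Mmp8 with Mmp9 had -0.0107 with array medians removed and -0.0787 without those arrays. Of the TIMPs and pair genes, the joint fit turned Timp2 (0.35), Adam10 (0.26) and Adam17 (-0.15) with the adipocyte score, Timp3 with Lep (-0.0727), and the Eif2s3y slopes of Mmp2 (-0.0158) and Timp4 (0.0389). Without the 48 arrays, Adam17 (-0.0819) and Mmp8 (-0.0483) turned with the adipocyte score and Mmp8 with Eif2s3y (slope 0.0009). In Eif2s3y-high mice with epididymis transcripts, Mmp9 (-0.28) turned with the adipocyte score and Adam8 (-0.35) and Mmp3 (-0.41) with Lep. In those without, Adam17 (-0.0224), Mmp8 (-0.0316) and Mmp9 (-0.0689) turned with the adipocyte score and Adam8 (-0.19) and Mmp3 (-0.22) with Lep. In Eif2s3y-low mice, Timp2 (0.11), Adam10 (0.16), Adam17 (-0.28) and Mmp8 (-0.0567) turned with the adipocyte score, Timp3 with Lep (-0.0592), and Adam10 (-0.0364) and Mmp10 (-0.0837) with the macrophage score. The cause was not tested. Of the other comparisons followed, 1216 kept direction and side of the threshold and 121 kept direction only. The 1216 include 95 with values at the limit left out, 95 with the filter loosened and 119 with gaps filled. Those settings changed few or none of the members' values, so the same outcome there was near certain from the start.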
